A study of Mus musculus with 4 samples.

Results

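Hemoglobin-dominated barcodes were those in which at least 50% of all UMIs came from Hba-a1, Hba-a2, Hbb-bs and Hbb-bt together, with no minimum of genes. They numbered 1676 of 22805 barcodes (7.35%) and are called members here. They were chosen by the share of hemoglobin UMIs, so that share and the levels of these 4 genes are given as a description without a test.

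The cells came from wild-type CD1 mouse hearts at E16.5, and 1 10x Genomics 3′ library was made from each of 4 microdissected regions. These were the region of the sinoatrial node (SAN), that of the atrioventricular node and His bundle (AVN/His), and those of the bundle branches and Purkinje fibers (BB/PF) in the left and in the right ventricle. CD1 is an outbred stock, and the labels do not say whether the libraries came from separate embryos, so a difference between regions cannot be told apart from one between libraries or embryos. Values are listed in the order SAN, AVN/His, BB/PF left and BB/PF right.

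Red cells of the mouse embryo arise in waves. Primitive erythroid cells of the yolk sac enter the blood first and carry the embryonic globins Hbb-y, Hbb-bh1 and Hba-x, whereas definitive erythroid cells of the fetal liver carry mainly the adult-type chains from Hba-a1, Hba-a2, Hbb-bs and Hbb-bt. Definitive precursors expel the nucleus to become reticulocytes, which then lose RNA, ribosomes and mitochondria while hemoglobin mRNA persists.

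The alpha-like genes lie on the plus strand of chromosome 11 in the order Hba-x (chr11:32276400-32278116), Hba-a1 (chr11:32283511-32284465) and Hba-a2 (chr11:32296489-32297298), in GRCm38. The beta-like genes lie on the minus strand of chromosome 7, read in the order Hbb-y (chr7:103851749-103853216), Hbb-bh1 (chr7:103841637-103843164), Hbb-bh2 (chr7:103839124-103840520), Hbb-bs (chr7:103826534-103828096) and Hbb-bt (chr7:103812524-103813996). Each has 3 exons in the annotation. In both clusters an embryonic gene stands first.

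The 150 bases before the RefSeq start are shown for the leading definitive gene and an embryonic gene of each cluster, since the contrast of both kinds of globin turns on them, and for Alas2, the erythroid form of the first enzyme of heme synthesis (GRCm38.p6, 5′ to 3′). Capitals mark the CACCC motif, the CCAAT box, a TATAA element or a GATAA motif, each on either strand and with overlaps allowed.
Hba-a1 (chr11:32283522-32283671, plus strand): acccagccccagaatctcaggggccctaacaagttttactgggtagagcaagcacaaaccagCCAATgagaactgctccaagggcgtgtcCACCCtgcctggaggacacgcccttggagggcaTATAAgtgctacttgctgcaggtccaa
Hba-x (chr11:32276450-32276599, plus strand): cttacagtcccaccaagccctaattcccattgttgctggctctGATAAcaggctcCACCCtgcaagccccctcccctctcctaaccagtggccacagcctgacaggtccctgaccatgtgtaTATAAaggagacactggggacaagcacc
Hbb-bs (chr7:103827929-103828078, minus strand): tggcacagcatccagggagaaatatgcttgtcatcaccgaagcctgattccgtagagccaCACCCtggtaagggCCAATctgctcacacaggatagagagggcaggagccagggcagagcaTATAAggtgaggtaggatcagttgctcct
Hbb-y (chr7:103853208-103853357, minus strand): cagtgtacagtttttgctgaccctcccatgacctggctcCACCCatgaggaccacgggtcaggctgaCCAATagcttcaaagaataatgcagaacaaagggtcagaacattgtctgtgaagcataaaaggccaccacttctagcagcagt
Alas2 (chrX:150547267-150547416, plus strand): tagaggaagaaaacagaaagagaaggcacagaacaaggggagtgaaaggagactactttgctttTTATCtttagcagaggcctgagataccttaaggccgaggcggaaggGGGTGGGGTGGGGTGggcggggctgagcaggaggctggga
Each of the 5 windows held CACCC, as did 37.4% of all 32851 promoter windows of this length. CCAAT stood in 3 of them (24.5% of all), TATAA in 3 (14.2% of all) and GATAA in 2, those of Hba-x and Alas2 (13.3% of all). RefSeq promoters were found for 7 of the 8 definitive and embryonic globin genes.

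The definitive pairs share sequence, which may bear on every split between them. The windows before Hba-a1 and Hba-a2 shared a run of 147 bases, whereas the longest run shared by those of Hbb-bs and Hbb-bt was 14 bases. Of all 50-base stretches of the Hba-a2 transcript, 86.9% occurred whole in that of Hba-a1, and 58.3% of those of Hbb-bt occurred whole in that of Hbb-bs. None of the Hba-x stretches occurred in Hba-a1 and none of the Hbb-y stretches in Hbb-bs. These stretches cover whole transcripts. Sharing at the 3′ ends, which 3′ libraries read, and the assignment of shared reads were not examined. Counts of Hba-a1 against Hba-a2 and of Hbb-bs against Hbb-bt are therefore read with caution.

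Hemoglobin-dominated barcodes were most frequent in the right ventricle and least frequent in AVN/His. They were 420 of 6342, 281 of 6001, 346 of 5452 and 629 of 5010 barcodes, or 6.62% (95% exact binomial interval 6.02 to 7.26), 4.68% (4.16 to 5.25), 6.35% (5.71 to 7.03) and 12.6% (11.6 to 13.5). The intervals of SAN and the left ventricle overlapped. Intervals here and below cover counting error only, and with 1 library a region no test between regions was possible.

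The share of hemoglobin UMIs fell into 2 separate ranges, as the histogram by library shows. It was under 5% in 20732 barcodes and at least 85% in 1573, and 500 barcodes (2.19%) lay between. The median share in members was 93.6%, 93.7%, 95% and 94.5%, whereas in all other barcodes it was 0.101%, 0.0605%, 0.0699% and 0.0681%. Just inside the limit, at 50% to 55%, were 3, 2, 0 and 9 barcodes with a median of 1297 genes, and just outside it, at 45% to 50%, were 8, 3, 4 and 7 with a median of 1679.5 genes. The medians of both bands thus lay above that of all members (174 genes), though single barcodes held as few as 111 genes just inside and 59 just outside.

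**Figure D1:**
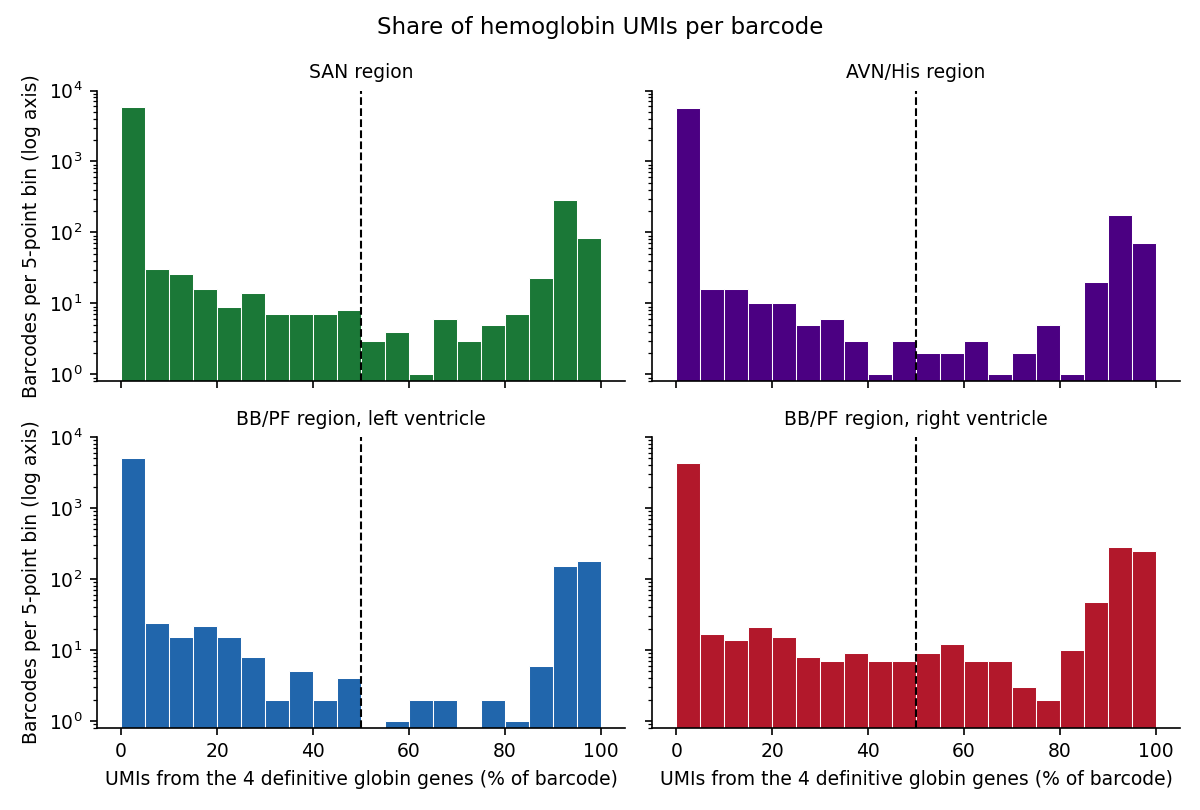
Number of barcodes (log axis) in bins of 5 percentage points of the share of UMIs from the 4 definitive globin genes, 1 panel a library, with the limit of 50% dashed. Most barcodes lie in the lowest bin and a second group lies above 85%, which over all libraries holds 1573 barcodes.

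Members were well covered in UMIs and poor in genes. They held a median of 5145, 5477, 5878.5 and 6229 UMIs but 205.5, 204, 162.5 and 151 genes, compared with 2595, 2581, 2391 and 2493 genes at 8478.5, 8951, 8647 and 9196 UMIs in the other barcodes. After each barcode was thinned to 500 UMIs, the medians were 32, 32, 26 and 25 genes in members and 345, 346, 331 and 326 in the others. The rule puts most UMIs of a member in 4 genes, so a low number of genes follows from it at any depth. These values are therefore a description. Beside the 4 definitive globins a median of 343, 377, 301.5 and 386 UMIs a member remained, called remaining UMIs below, and levels of genes are given as CPM, counts scaled to 1000000 remaining UMIs of the class and library. Genes per member ranged from 56 to 2353.

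Most members lay under 500 genes, the lower limit the study used. Of the 1770 barcodes under it, 1617 (91.4%) were hemoglobin-dominated, and of the other 153, 151 held more than 50% mitochondrial UMIs. Only 59 members had 500 genes or more, namely 19, 12, 4 and 24.

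Members held 85.4%, 87.9%, 86.3% and 91.9% of all definitive globin UMIs of their library and 4.04%, 2.82%, 4.10% and 9.01% of all its UMIs. Barcodes under 5% hemoglobin held a median of 9, 5, 6 and 6 definitive globin UMIs. The libraries held 58029660, 57766525, 50940848 and 49328589 UMIs in all, and no barcode held fewer than 3386, 3432, 4245 and 4190 in its library. Each pair of libraries shared 38 to 54 barcode sequences, 269 in all, of which 2 were members on both sides.

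The erythroid label was checked against Alas2, which the rule did not use. An Alas2 UMI was found in 412, 279, 343 and 620 members, or 98.1%, 99.3%, 99.1% and 98.6%, and in 3.63%, 1.73%, 2.64% and 2.85% of the other barcodes. Of the blood progenitor markers, Kit had 0, 0, 0 and 1 UMIs in all members together and Cd34, which endothelial cells also express, 11, 5, 6 and 17, both named after their values were seen.

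Among the definitive globins Hbb-bs was the most abundant, with 1002215, 698656, 942052 and 1805892 UMIs in members, followed by Hba-a1 with 806915, 602740, 735918 and 1655026. Hbb-bt gave 260127, 166546, 234305 and 488260 UMIs. Hba-a2 was the scarcest of the 4 genes in every library, with 76880, 25125, 45787 and 107140 UMIs. Alpha chains made up 41.2%, 42.1%, 39.9% and 43.4% of definitive globin UMIs.

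The balance within the beta pair had like medians in the libraries and a wide spread between barcodes. Hbb-bt made up a median of 20.3%, 19.2%, 19.3% and 21.3% of the beta chains per barcode, with SDs of 4.88, 4.06, 3.70 and 4.72 percentage points, whereas counting alone would give 0.750, 0.725, 0.686 and 0.720 at the median depth. Its lowest value was 1.0%, in the right ventricle, and its highest 56.5%, in SAN.

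The alpha pair differed between libraries. Hba-a2 made up a median of 8.55% of alpha chains in SAN members (range 6.45 to 11.5), 3.83% in AVN/His (range 1.45 to 6.30), 5.76% in the left ventricle (range 3.13 to 8.34) and 5.51% in the right ventricle (range 2.40 to 10.5). The lowest SAN member thus stood above the highest AVN/His member, while both ventricles overlapped with every other library. The SDs between barcodes were 0.846, 0.962, 0.955 and 1.73 percentage points, widest in the right ventricle. Counting alone would give 0.643, 0.425, 0.496 and 0.462 at the median depth. In barcodes under 5% hemoglobin, Hba-a2 made up 8.22%, 6.18%, 5.94% and 8.35% of alpha chains. The part of shared sequence and of differences between embryos in this split was not tested.

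**Figure D2:**
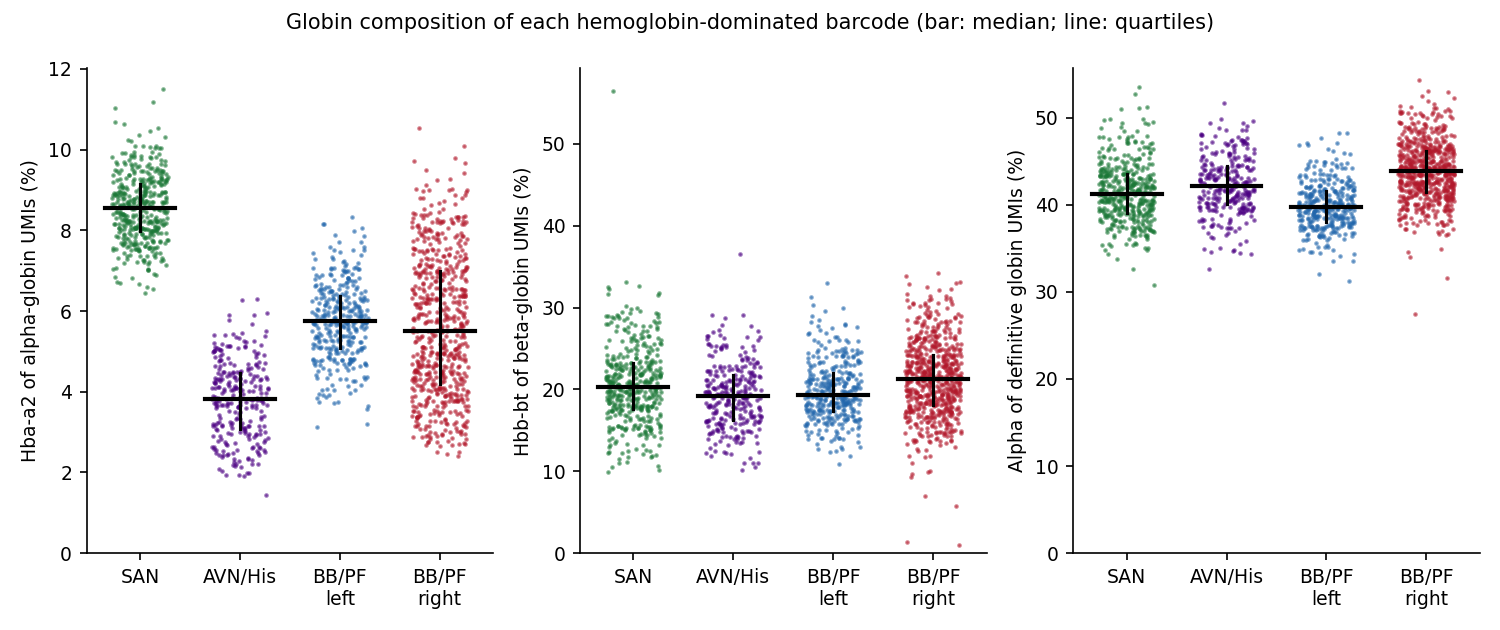
Each point is 1 hemoglobin-dominated barcode: Hba-a2 as a percentage of alpha-globin UMIs (left), Hbb-bt as a percentage of beta-globin UMIs (middle) and alpha chains as a percentage of definitive globin UMIs (right), by library, with medians (thick bars) and quartiles (lines). SAN members (median 8.55%) lie above all AVN/His members (median 3.83%) in the left panel, while the libraries overlap in the other panels.

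Embryonic globins made up very little of the globin of members. Hbb-y, Hbb-bh1, Hbb-bh2 and Hba-x together gave 63, 29, 283 and 29 UMIs, or 29.4, 19.4, 145 and 7.15 in every 1000000 globin UMIs (95% exact intervals 22.6 to 37.6, 13 to 27.9, 128 to 162 and 4.79 to 10.3). A single member of the left ventricle held 266 of the UMIs there, and all its other members together 17. In all, 70 of 1676 members (4.18%) had any embryonic globin UMI, that is 16, 20, 16 and 18 members.

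By gene, Hbb-bh1 gave 58, 21, 11 and 14 UMIs, Hbb-y 1, 2, 186 and 5, Hba-x 2, 0, 84 and 9 and Hbb-bh2 2, 6, 2 and 1. Hbb-bh1 led in SAN, AVN/His and the right ventricle, and the left ventricular counts of Hbb-y and Hba-x were nearly all those of its single embryonic-rich member. Of the 5 members with at least 5 embryonic UMIs, 3 carried Hbb-bh1 alone (41, 9 and 7 UMIs).

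The embryonic-rich member of the left ventricle held 178 Hbb-y, 84 Hba-x and 4 Hbb-bh1 UMIs beside 4999 definitive globin UMIs, which is 5.05% of its globin. It had 230 genes in 5666 UMIs and 5 Alas2 UMIs. By comparison, the SAN member with 41 Hbb-bh1 UMIs had 1521 genes, a hemoglobin share of 55.7% and UMIs of 4 fibroblast markers. The upper quartile of genes per member was 207 in the left ventricle and 287 in SAN, and both barcodes lay above that of their library.

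Set against all globin UMIs, nearly all of which come from the genes that chose the members, the embryonic genes gave 306, 792, 351 and 628 in every 1000000 globin UMIs of the other barcodes, from 112, 163, 109 and 224 UMIs. The rule bears on this denominator, so the values are a description with no test. The median barcode had no embryonic UMI in either class. The share of barcodes with any such UMI ran the other way, with 113 of 21129 (0.535%) outside the class against 4.18% of members. In 7 of the 8 outside the class with at least 20 embryonic UMIs, Hba-x led with 20 to 92 UMIs and no Alas2 UMI was found.

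The theta globins Hbq1a and Hbq1b, minor alpha-like genes, were low in each library. Hbq1b gave 56, 48, 48 and 69 UMIs in members and 13, 6, 4 and 8 in the others, and Hbq1a gave 42, 13, 10 and 47 and 7, 1, 1 and 8. Both were far higher in members on the CPM scale. In edgeR's quasi-likelihood fit the log2 FC was 11.57 ± 0.33 for Hbq1b and 11.28 ± 0.52 for Hbq1a (SE of the fit to 4 libraries). The others held at most 0.235 CPM of Hbq1b and 0.180 of Hbq1a. Both genes thus passed the filter on low counts only through members, which set the direction in advance. Their fold changes are a description, and no p-value is given.

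The remaining transcripts of members were compared with those of all other barcodes by summing counts per library and class, without the 4 definitive globins. Members contributed 200139, 137691, 131122 and 387778 remaining UMIs. In edgeR's quasi-likelihood test with the library as a block, 729 of 12999 tested genes rose (5.61%) and 746 fell (5.74%) at an adjusted p of 0.05. Without TMM factors 510 genes rose and 4990 fell, and DESeq2 called 779 and 132. The median log2 FC of all tested genes was -0.49 with TMM factors and -1.28 without, so the fold changes below are read against the former. The other barcodes are a mixture of heart cell types. The p-values and SEs come from a fit to these 4 libraries only and do not follow the spread of each gene between them. Mki67, for instance, passed although members stood above the others in only 2 of 4 libraries. A low p-value therefore does not show that the libraries were alike for that gene.

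Most genes of the erythroid lists rose, and none fell with TMM scaling. Of heme synthesis and transport genes 11 of 14 tested rose (median log2 FC 3.49), of red cell membrane and skeleton 19 of 22 (median 6.31), of globin stability and redox 6 of 9 (median 3.90), of reticulocyte maturation 13 of 14 (median 4.75) and of erythroid transcription factors 10 of 13 (median 3.29). The highest edgeR adjusted p among the genes called in these lists was 0.036. Without TMM factors 11, 18, 6, 13 and 8 rose and 1, 1, 2, 0 and 2 fell. All 3 tested embryonic globins were called as risen on this scale, which sets them against remaining rather than globin UMIs. These calls are not support, and 1 left ventricular barcode held most of these UMIs. Hbb-bh1 held at most 0.127 CPM in the others, so it passed the filter on low counts only through members. Hba-x was higher in members in 3 of 4 libraries, with 0 CPM in AVN/His members against 2.65 in the others.

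**Figure D3:**
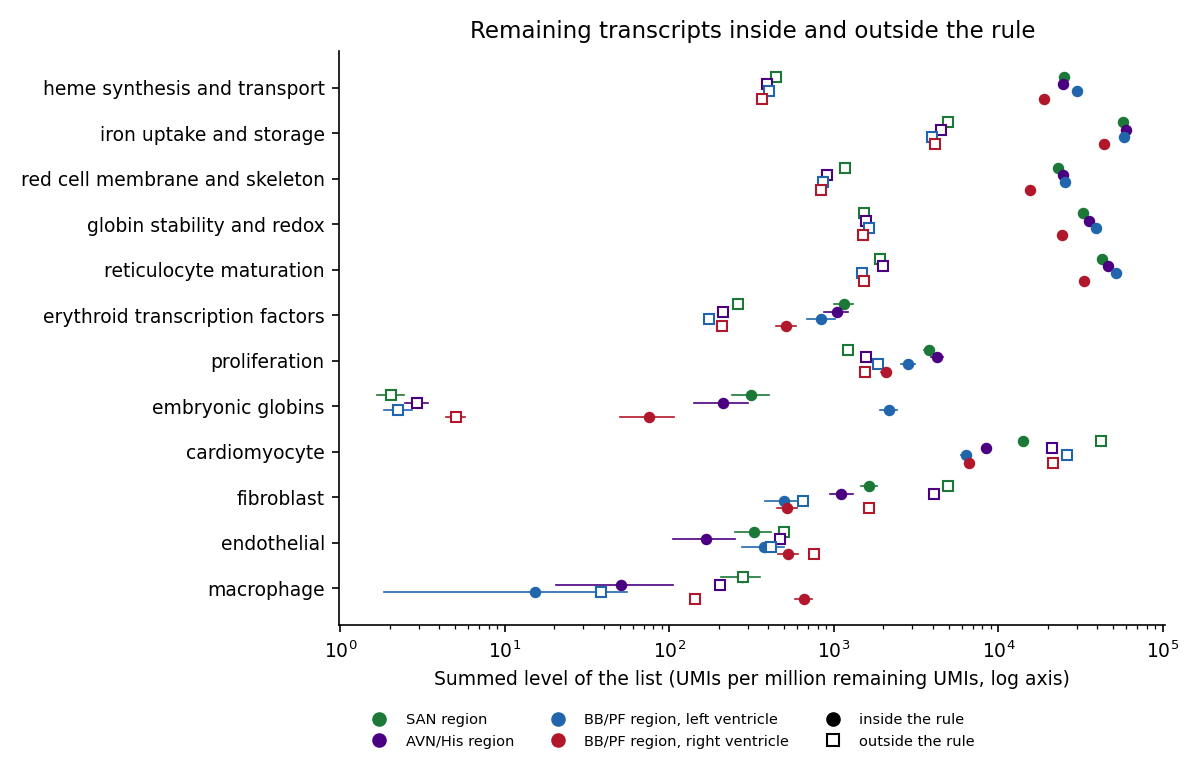
Summed level of each gene list in CPM of the remaining UMIs (log axis), in hemoglobin-dominated barcodes (filled circles) and all other barcodes (open squares), coloured by library, with 95% exact Poisson intervals as lines. The sums of the 5 erythroid lists and of the iron list are higher inside the rule in every library, and cardiomyocyte markers are lower. Nearly all UMIs of the iron list in members are those of Ftl1 and Fth1. Macrophage markers are higher inside the rule in the right ventricle (655 against 144).

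Alas2 led the heme list, with 15114, 15680.0, 19615 and 12239 CPM in members and 11.4, 5.52, 8.59 and 10.8 in the others (log2 FC 11.51 ± 0.25). Fech, which inserts iron into the heme ring, reached 3802, 3319, 4812 and 3022 against 44.3, 31.4, 32.8 and 28.8 (log2 FC 7.50 ± 0.22). For both genes the groups were far apart in every library. The mitochondrial iron importer Slc25a37 (8.36 ± 0.23) and Fam210b (7.24 ± 0.22) rose as well. Tmem14c, which acts in porphyrin transport, stood at 33.5 to 74.9 in members and 109.8 to 143 in the others (log2 FC -0.56 ± 0.29, edgeR adjusted p = 0.24).

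In the iron list the 2 ferritin chains were the genes that passed the test, of 8 tested, with a list median of 0.57. Without TMM factors 2 rose and 2 fell (median -0.24). Ftl1 reached 32248, 31818, 32184 and 26237 CPM in members against 2572, 2324, 1588 and 1979 (log2 FC 4.61 ± 0.19), and Fth1 had a log2 FC of 4.2 ± 0.18. Tfrc, the transferrin receptor that precursors use for iron uptake, had 12, 7, 2 and 9 UMIs in members (log2 FC 0.85 ± 0.37, edgeR adjusted p = 0.12). Ireb2 and Aco1, which sense iron, had log2 FC of -1.05 ± 0.54 and -2.10 ± 0.91 (edgeR adjusted p = 0.23 and 0.13), and without TMM factors the Ireb2 log2 fold change was -1.85 (edgeR adjusted p = 0.0015).

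Of the membrane genes, Cd24a, a surface glycoprotein, reached 7979, 9216, 9571 and 5890.0 CPM in members against 103, 42.3, 37.1 and 30 (log2 FC 8.16 ± 0.22). The groups were separate in every library. Car2, the carbonic anhydrase that serves carbon dioxide transport, reached 3687, 3566, 3386 and 2489 (8.51 ± 0.23) and had a UMI in 36.0%, 29.5%, 30.3% and 29.3% of members. Bsg, which encodes the surface protein basigin, rose less (2.23 ± 0.18). Tmod1, which caps actin filaments, lay at 74.8 to 159.9 in members and 167 to 249 in the others (-0.04 ± 0.24, edgeR adjusted p = 0.95).

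The redox list was led by Gpx1, a peroxide-removing enzyme, at 12137, 14910.2, 17388 and 8603 CPM in members against 225, 208, 195 and 196 (log2 FC 6.70 ± 0.21). Prdx2, an abundant red cell peroxiredoxin, followed at 10733, 11446, 10967 and 8489 against 607, 655, 709 and 624 (4.73 ± 0.19). Bpgm, which makes the bisphosphoglycerate that lowers oxygen affinity, and the biliverdin reductase Blvrb had log2 FC of 9.18 ± 0.23 and 6.69 ± 0.21. Sod1 lay at 30.5 to 72.6 in members and 114 to 139.5 in the others (-0.45 ± 0.28, edgeR adjusted p = 0.36).

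Among reticulocyte maturation genes, Mkrn1, an E3 ubiquitin ligase, reached 12656, 13203, 15924 and 10011 CPM in members against 41.4, 39.4, 38.1 and 37.9 (log2 FC 9.08 ± 0.23). Bnip3l, a receptor through which reticulocytes clear mitochondria by autophagy, rose by 6.0 ± 0.20 and the ubiquitin gene Ubb by 3.69 ± 0.18. These transcripts were widespread, with an Mkrn1 UMI in 93.1%, 96.4%, 98.6% and 93.5% and a Bnip3l UMI in 86.2%, 84.3%, 86.7% and 84.3% of members.

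Transcription factors were scarce. The rule named Lmo2, an adaptor of the erythroid factor complex, at 419.7, 319.6, 336 and 142 CPM (log2 FC 4.10 ± 0.23), E2f2 (5.86 ± 0.35), Foxo3 (3.34 ± 0.30) and Klf3 (1.43 ± 0.29). Gata1, the master factor of the lineage, had 5, 4, 0 and 0 UMIs and Klf1, an activator of adult beta-globin, 16, 18, 7 and 15, both chosen after their values were seen. Bcl11a, a repressor of embryonic globins, had 3, 0, 0 and 1 UMIs in members (log2 FC -1.83 ± 0.68, edgeR adjusted p = 0.058).

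Of 12 proliferation genes 2 rose and none fell with TMM factors (list median -0.27), whereas without them 1 rose and 7 fell (median -1.03). Ube2c, a ubiquitin-conjugating enzyme of mitotic exit, reached 2783, 3101, 2357 and 1759 CPM in members against 152, 203, 261 and 202 (log2 FC 4.35 ± 0.19) and had a UMI in 47.6%, 49.5%, 49.7% and 44.2% of them. Mki67 was called as well (1.38 ± 0.28, edgeR adjusted p = 2.0e-05), but its 41, 18, 3 and 14 UMIs exceeded the level of the others in 2 of 4 libraries, and 5 barcodes held 25 of the 41 in SAN and 17 of the 18 in AVN/His. Hmgb2 (-0.51 ± 0.20, edgeR adjusted p = 0.080) and Birc5 (-0.39 ± 0.27, edgeR adjusted p = 0.40) did not pass.

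The 10 genes with the lowest p-values among those that rose included Isg20 (log2 FC 11.10 ± 0.26) and Fam46c (8.99 ± 0.24) beside Alas2, Slc25a37, Cd24a, Car2, Bpgm and Mkrn1. Among those that fell they were Ttn, Cdh2, Atp2a2, Nexn, Casq2, Myh6, Ryr2, Trdn, Zbtb20 and Lpl, most of them sarcomere, junction or calcium-handling genes of heart muscle. Ttn, which encodes the sarcomere spring titin, lay at 309.8, 138, 214 and 159.9 CPM in members against 1369, 1432, 1846 and 1541 (log2 FC -2.19 ± 0.20, edgeR adjusted p = 2.7e-26). Cdh2, the cadherin of the muscle cell junction, had a log2 FC of -2.93 ± 0.37.

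Transcripts of other heart cells were found among the remaining UMIs of members. The 8 cardiomyocyte markers summed to 14170.2, 8439, 6315 and 6661 CPM in members and 42148, 21203, 26121 and 21529.9 in the others, and all of them fell (median log2 FC -0.86), whereas DESeq2 called 3. Fibroblast markers summed to 1639, 1111, 496 and 518 against 4913, 4069, 649.7 and 1626, and 4 of 7 fell, with DESeq2 calling 0. SAN stood highest inside and outside the class for both lists. Endothelial markers summed to 325, 167, 374 and 529 against 498, 470.2, 413 and 756, with 0 of 8 called by edgeR or DESeq2 and 3 fallen without TMM factors.

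Macrophage markers differed between libraries. They summed to 275, 50.8, 15.3 and 655 CPM in members and 278, 202, 38.2 and 144 in the others, and 5 of 7 rose. Members with 500 genes or more held 36, 0, 0 and 247 of these UMIs and all smaller members 19, 7, 2 and 7. With the smaller members alone 0 of 7 rose, and DESeq2 with all members called 0. Megakaryocyte and platelet genes summed to 99.9, 21.8, 22.9 and 56.7 in members and 74.1, 32.4, 14.1 and 35.3 in the others, with 2 of 5 tested called by edgeR and 1 by DESeq2.

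The 59 members with 500 genes or more mostly carried markers of other cells. In 57 of them at least 3 markers of cardiomyocytes, fibroblasts, endothelial cells, macrophages or smooth muscle had a UMI, with cardiomyocytes in 45. This was not particular to them. Among the smaller members, at least 3 cardiomyocyte markers were seen in most of those in SAN and in a minority in each other library. A barcode with more genes can reach 3 markers more easily, and the part of gene number was not tested. In 13 of the 59 (7, 3, 2 and 1) at least 3 erythroid transcription factors were seen and in 12 (5, 3, 1 and 3) at least 3 proliferation genes. Such counts were not particular to these members. Of the 5922, 5720, 5106 and 4381 other barcodes, 1396, 1033, 666 and 760 had at least 3 of these factors. At least 3 proliferation genes were seen in 2143, 2282, 2480 and 1879 of them. In the 59 members the summed transcription factors were 2437, 2229.9, 898 and 311 CPM. The summed proliferation genes of these 59 were 3989.9, 8151, 385 and 736 CPM. Doublets were not removed, and their part in these values was not tested.

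Mitochondrial transcripts set the right ventricle apart. Pooled over barcodes they made up 12.6%, 12.6%, 15.7% and 32.5% of the remaining UMIs of members and 7.97%, 11.5%, 13.3% and 14.3% of those of the others, which is higher in 4 of 4 libraries (mean difference 6.59 percentage points, exact 2-sided permutation test over 4 pairs, p = 0.13, the smallest p that 4 pairs allow). Without the right ventricle the mean difference was 2.69 percentage points. At a limit of 70% hemoglobin it was 4.05 (exact permutation p = 0.88), and the libraries no longer shared 1 sign. In the edgeR fit 13 of 13 mitochondrial genes rose (median log2 FC 1.39). Without TMM factors 10 rose (median 0.65), and DESeq2 called 8 as risen. With at least 500 genes and 1000 UMIs in both classes 0 rose and 11 fell (median -1.93).

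The pooled and the median barcode differed. The median member held 5.58%, 5.16%, 8.81% and 25.4% mitochondrial UMIs and the median other barcode 6.85%, 7.51%, 13.6% and 14.2%, so that members were lower by this measure in 3 of 4 libraries. In 114 right ventricular members (18.1%) more than 50% of remaining UMIs were mitochondrial, compared with 11, 8 and 7 members elsewhere. Without all such members, an alternative chosen after seeing the data, the mean difference was -1.62 percentage points and 3 of 13 mitochondrial genes rose. The right ventricular library also held the highest share of hemoglobin-dominated barcodes.

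**Figure D4:**
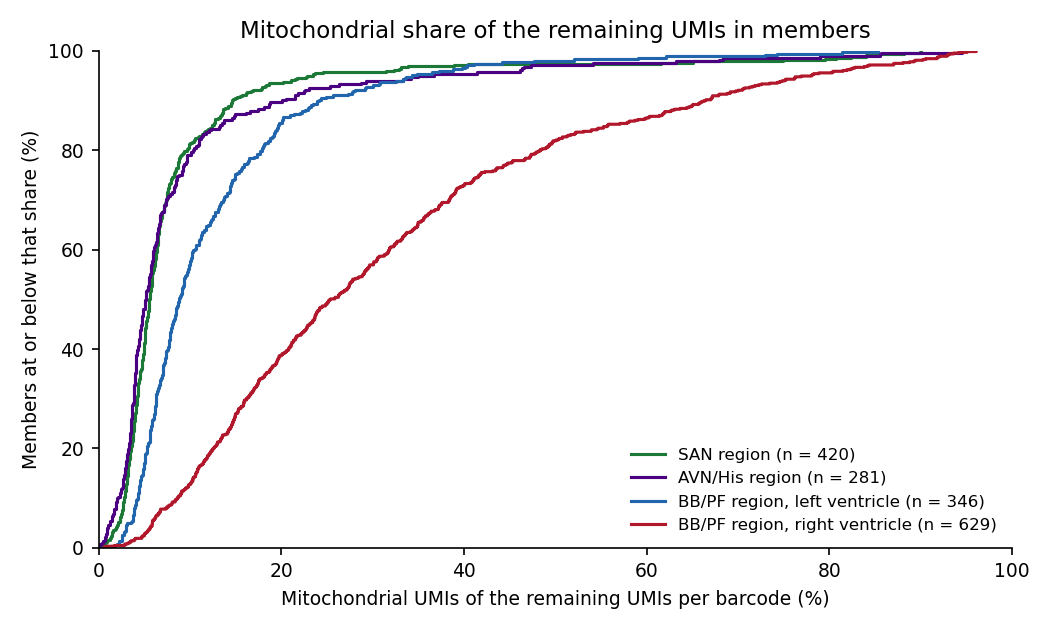
Cumulative percentage of hemoglobin-dominated barcodes (vertical axis) at or below a given mitochondrial percentage of the remaining UMIs (horizontal axis), 1 line a library. The line of the right ventricle lies to the right of the others, with a median of 25.4% against 5.16% to 8.81%.

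Ribosomal protein transcripts made up 16.3%, 16.0%, 14.5% and 14.4% of the remaining UMIs of members and 19.1%, 18.0%, 16.9% and 18.1% of those of the others. They were lower in 4 of 4 libraries, with a mean difference of -2.74 percentage points (exact 2-sided permutation test over 4 pairs, p = 0.13). At a limit of 30% hemoglobin the mean difference was -0.0877 (exact permutation p = 0.88), no longer with 1 sign in all libraries. Gene by gene the direction depended on the scaling: with TMM factors 29 of 108 rose and 4 fell, and without them 6 rose and 58 fell.

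Members with fewer than 500 genes also differed among themselves along their number of remaining UMIs. They were split in each library into tertiles, with medians of 198, 173, 198 and 204 remaining UMIs in the lowest and 589, 591, 438 and 710 in the highest, and levels were taken as CPM of the non-mitochondrial remaining UMIs. This split was chosen after the data were seen and no test was run on it. Of 28 list genes with at least 200 UMIs, 13 were higher in the highest than in the lowest tertile in 4 of 4 libraries, 8 were lower in 4 of 4 and 7 were mixed. Since levels are shares of a total, a higher share of some genes lowers others.

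Cd24a, Car2 and Gpx1 were among the genes higher in the highest tertile, while the redox gene Prdx2 (higher in 2 of 4 libraries) and the surface gene Bsg (3 of 4) were mixed. Cd24a went from 7783, 8493, 11443 and 10166 in the lowest tertile to 10164, 11894, 12528 and 12791 in the highest, with overlapping intervals in the left ventricle. Car2 went from 502, 205, 409 and 474 to 6404, 5849, 7274 and 7965, and Gpx1 from 3766, 2534, 9042 and 2474 to 20873, 26555, 30249 and 25318. For Car2 and Gpx1 the middle tertile lay between the others in every library. Slc4a1, which encodes the anion exchanger band 3, went from 293, 205, 153 and 136 to 831, 432, 762 and 1057, and Urod, a heme synthesis enzyme, from 41.8, 205, 255 and 102 to 1090.0, 981, 927 and 1148, both chosen after their values were seen. Slc4a1 had 288 and Urod 351 UMIs in all tertiles and libraries together, so their values in the lowest tertile rest on few UMIs.

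Alas2 and the ferritin chain Ftl1 took the opposite course. Alas2 went from 27239.6, 33219, 32897 and 36868 in the lowest tertile to 17454, 17782, 21348 and 20563 in the highest. Ftl1 went from 59751, 65342, 55783 and 72481 to 36869, 35348, 34577 and 43098, and Fech from 6402, 6438, 8378 and 8336 to 4210.1, 3317, 5151 and 5283. For Tpt1, chosen after its values were seen, the highest tertile stood at 0.399 to 0.607 times the lowest. Members with the fewest remaining UMIs were thus richest in Alas2 and Ftl1 relative to their other transcripts, and poorest in Car2 and Gpx1.

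**Figure D5:**
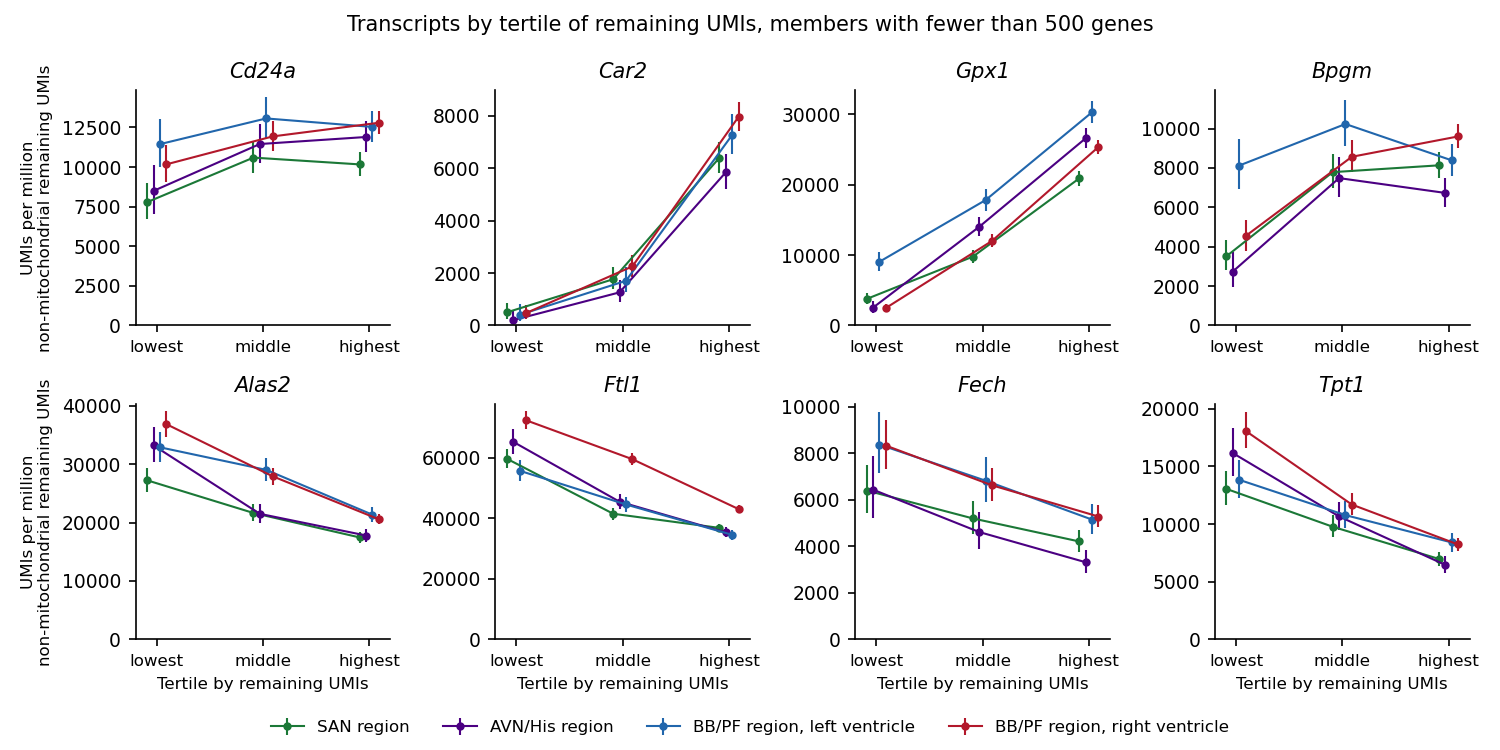
Level of 8 genes (CPM of the non-mitochondrial remaining UMIs) in the lowest, middle and highest tertile of hemoglobin-dominated barcodes with fewer than 500 genes, ranked by remaining UMIs, 1 line a library, with 95% exact Poisson intervals as bars. Car2 and Gpx1 are highest in the highest tertile in every library, while Alas2, Ftl1, Fech and Tpt1 are lowest there.

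The alpha balance differed along the same axis. Hba-a2 made up 8.02%, 2.97%, 5.09% and 4.48% of alpha chains in the lowest tertile and 9.18%, 4.51%, 6.47% and 7.16% in the highest, higher in 4 of 4 libraries. Hbb-bt showed no such order, with 20.7%, 19.8%, 18.9% and 21.7% of beta chains in the lowest, 18.9%, 17.3%, 18.8% and 19.9% in the middle and 21.3%, 20%, 21.6% and 22.2% in the highest tertile, the middle being the lowest in every library. The mitochondrial share went from 7.32%, 8.70%, 11.2% and 28.3% to 20.3%, 20.1%, 19.1% and 46.3%, but mitochondrial UMIs are among the remaining UMIs that ranked the barcodes, so this is fixed in part by the split. Summed cardiomyocyte markers went from 16068, 7671, 9501 and 7149.9 to 16527, 9146, 7707 and 5872, up in 2 libraries and down in 2. Median total UMIs went from 3754, 3889, 4647 and 4761 to 7466, 7452, 6980 and 9345, and the part of depth in these differences was not tested.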

How the data were processed

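Single-cell suspensions of the 4 regions were sequenced as 10x 3′ libraries. The authors deposited UMI counts per gene and barcode, made with Cell Ranger against mm10; its version and annotation release are not given in the sources used here. All 4 deposited matrices (27998 genes) were read with no filter on genes, and no per-sample column was left unused (0). Doublets were not removed. Remaining counts, without the 4 rule genes, were summed per library and class. They were tested with edgeR 4.0.16 (filterByExpr, TMM, quasi-likelihood, library as block, Benjamini-Hochberg) in R 4.3.3, with DESeq2 1.42.0 as an alternative, after a check on simulated data. SE is the absolute log2 FC divided by the square root of F, so it is not the spread of a gene between libraries. Shares were compared by exact sign-flip permutation over libraries in Python 3.11.15 (scipy 1.17.1). Libraries, not barcodes, were the replicates.

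Named genes were the globins, the 4 genes of each list with the highest level in members, the gene of each list with the lowest p in either direction, and the 10 genes with the lowest p in each direction; the others are marked as chosen after their values were seen. A few list genes enter the counts and are not reported here. The members and lists were chosen with earlier results of these data known. Alternatives chosen after seeing the data were those without the member richest in embryonic globins, with medians over barcodes for the mitochondrial and ribosomal shares and with members under 50% mitochondrial. A test of the embryonic share of globin UMIs is not given, because the rule bears on its denominator. Promoter sequences are from RefSeq (GRCm38.p6) and gene positions and transcripts from GENCODE vM21 (GRCm38).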

Additional observations from a re-analysis of the deposited data

How the results depend on the processing

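With a minimum of 500 genes and 1000 UMIs the members numbered 59 with a median of 950 genes. The mitochondrial difference was then -5.00 and the ribosomal one 2.49 percentage points, both reversed, and 314 genes were called (170 rose, 144 fell). Thinned to 500 UMIs, the median member held 28 genes. Without members over 50% mitochondrial the mitochondrial difference was -1.62. Without TMM factors 5500 genes were called (4990 fell), and DESeq2 called 911 (132 fell). Leaving out 1 library at a time gave 924 to 1249 calls, 571 to 728 risen and 353 to 521 fallen, the fewest without the right ventricle. It gave 2.69 to 8.41 percentage points for the mitochondrial and -2.96 to -2.40 for the ribosomal share. Each library gave both classes, which pairs the sums, and without the replicate block 1205 genes were called (648 rose, 557 fell). With the gene minimum Hba-x had a log2 FC of -8.38 and Tpt1 of -0.35, both reversed and neither called (edgeR adjusted p = 0.71 for each). Tmod1 turned to 0.16 at a limit of 70%, 0.11 in members under 500 genes, 0.023 without a filter, 0.20 and 0.03 without the left or the right ventricle and 0.19 in DESeq2, and leaving out 1 library at a time gave -0.20 to 0.20. Of 58 named genes, 34 had the same call under all 16 alternatives, and 4 more under the 14 or 15 in which they were tested. The cause of these changes was not tested. With 4 libraries no exact test could go below p = 0.13 (0.25 with 3 libraries), and no difference between regions could be tested.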

Other observations

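The interferon-induced genes Isg15 and Rsad2, chosen after their values were seen, were highest in AVN/His. Isg15, a ubiquitin-like modifier, had 12, 145, 8 and 6 UMIs in hemoglobin-dominated barcodes, found in 5, 41, 2 and 3 of them. It reached 1053 CPM in AVN/His (95% exact Poisson interval 889 to 1239) against 60.0, 61.0 and 15.5 in SAN, the left and the right ventricle. Rsad2 was seen in 41, 60, 47 and 59 members and reached 937 in AVN/His against 345, 526 and 229.5. In all other barcodes Isg15 stood at 3.58, 12.4, 1.5 and 3.17. With 1 library a region the difference was not tested.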
